A study of Mus musculus with 232 samples.

Results

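The mRNAs of 10 iron handling genes were followed in single mouse embryonic stem cells (mESCs) that received one miRNA at a time. The genes were Ftl1 and Fth1 (storage), Tfrc, Slc11a2 and Slc40a1 (uptake, import and export), Aco1 and Ireb2 (iron regulatory proteins), and Pcbp1, Pcbp2 and Ncoa4 (loading and turnover of ferritin). They were 10 of the 42493 genes in the count tables and were found by symbol, and each of the 10 averaged 5 counts or more over all cells, as did 11178 genes in all. The set was chosen by measured values of the same cells, since the contrast of Ftl1 and Fth1 between let-7-transfected and mock-transfected cells was known when the genes were listed. The folds of these genes are therefore a description and not a test.

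Iron enters most cells bound to transferrin through the transferrin receptor (Tfrc) and crosses the endosomal membrane through the transporter DMT1 (Slc11a2). Surplus iron is oxidized and stored inside ferritin, a hollow shell built of a mixture of heavy chains (Fth1), which carry the ferroxidase activity, and light chains (Ftl1), or it leaves the cell through ferroportin (Slc40a1), the exporter. When iron is short, the iron regulatory proteins IRP1 (Aco1) and IRP2 (Ireb2) bind hairpins called iron-responsive elements (IREs). Binding in the 5′ UTR blocks translation, and binding in the 3′ UTR of Tfrc protects the mRNA from decay.

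Dgcr8-/- mESCs cannot make most of their own miRNAs, because DGCR8 is needed to cut the primary transcripts. Of these, 60 cells were mock-transfected (called Dgcr8-/- cells here), 48 were transfected with a let-7 mimic and 58 with a miR-294 mimic, and 16 cells were wild type (WT, titled V6.5). All were grown with serum, LIF and the 2i inhibitors PD0325901 and CHIR99021, and were captured on Fluidigm C1 circuits 24 h after transfection. The mimic is named let-7i in the sample titles and let-7b in the series text, and the labels do not say of the WT cells alone whether they were mock-transfected. The authors had discarded transfected cells whose targets were not reduced, so the cells are a selected set.

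One circuit was used per condition and no culture is named below it, so that each condition counted as 1 sample, chip and condition cannot be told apart, and no p-value is given. A level is the sum of the counts over the cells of a condition divided by the sum of their size factors, and a normalized count is that of a single cell. Intervals are exact 95% intervals that cover counting error only, and reads made by PCR without molecular identifiers are not independent molecules. Total counts per cell ranged from 513521 to 3979274, with medians between 1307481 and 1574733 in the 4 conditions. In 4 pairs of cells the counts differed no more than the runs of 1 cell do, so each pair was counted as 1, leaving 45 let-7-transfected and 57 miR-294-transfected cells. In 2 cells, 1 WT and 1 let-7-transfected, the 2 sequencing runs disagreed. Without these 2 cells the log2 folds of Ftl1 and Fth1 after let-7 were -2.04 and 1.11, and as many of the 10 genes passed 2-fold in each comparison. One Dgcr8-/- cell stood apart, with the highest Ftl1 (33624), Fth1 (3514) and Slc40a1 (1499) and the lowest Tfrc (1.65) of its condition. It had a total count of 1594550, 3 of the 8 stem cell markers at 0 and a marker sum of 1939, where the other 59 Dgcr8-/- cells ranged from 1900.4 to 13795. Some of the results that it touches are also given without it. Without it the log2 folds of Ftl1 and Fth1 were 0.31 and 0.48 after miR-294. In Dgcr8-/- against WT cells they were 0.59 and 0.53. Dgcr8 itself was at a level of 155 in WT cells and between 49.8 and 59.9 in the 3 conditions labelled Dgcr8-/-, where counts may come from exons that were not deleted. The 8 stem cell markers summed to levels between 5291 and 8077, while fibroblast (at most 1.23) and endoderm (at most 8.87) markers were near 0. The trophoblast markers summed to between 16.8 and 86.7, mostly through Eomes. The stem cell sum was lowest after let-7, with Nanog at 232 against 678 in Dgcr8-/- cells, and its part in the results was not tested. Of 4 erythroid markers 3 had 0 counts in every cell, and Alas2 reached a level of 5.14 after let-7.

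The mimics and the motifs of the iron genes are shown because they set what each miRNA could pair with. In the mature miRNAs, from RefSeq (GRCm38.p6), the capitals mark the seed, bases 2 to 8. The 3 let-7 members named for this study share the seed, and miR-294-3p has another.
let-7b: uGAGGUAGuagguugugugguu
let-7c: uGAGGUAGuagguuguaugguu
let-7i: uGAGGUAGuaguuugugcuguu
miR-294-3p: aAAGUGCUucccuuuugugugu

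The perfect complement of the let-7 seed, CTACCTC, occurred in the 3′ UTR of 0 of the 10 genes, against 8.35% of 20245 annotated 3′ UTRs (Gencode M21, GRCm38, sense strand, 1 transcript per gene). Ftl1 held 1 match in its coding sequence, as did 12.6% of 21877 coding sequences. The complement of the miR-294 seed, AGCACTT, occurred in the 3′ UTRs of Tfrc and Slc40a1 and in 13.9% of all 3′ UTRs, and in the 5′ UTR of Pcbp1. In these windows the capitals mark the seed match. The Ftl1 window crosses an exon junction, so that its genomic span includes an intron.
Ftl1, coding sequence, chr7:45459226-45459554, minus strand: ggcctcctacacCTACCTCtctctgggctt
Tfrc, 3′ UTR, chr16:32631322-32631351, plus strand: gcacttatggtcAGCACTTgcaactttagg
Slc40a1, 3′ UTR, chr1:45908265-45908294, minus strand: tgcattgctgtgAGCACTTtctttgtcgtt

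The hairpins that bind the iron regulatory proteins were searched as a C, 5 bases of any kind and the loop CAGTGN, followed by 5 bases of which at least 4 pair with the 5 bases before the loop. In the 5′ UTR this pattern occurred in Ftl1, Fth1 and Slc40a1 (1 each), against 0.65% of 19997 5′ UTRs, and in the 3′ UTR it occurred 4 times in Tfrc, against 3.71% of 3′ UTRs with at least 1. Only this form in 1 transcript per gene was searched, so elements of another form or in another transcript were not counted. The capitals mark the 6-base loop, which differed between the ferritin chains at its last base only.
Ftl1, 5′ UTR, chr7:45459779-45459806, minus strand: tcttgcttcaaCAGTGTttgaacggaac
Fth1, 5′ UTR, chr19:9982733-9982760, plus strand: tcctgcttcaaCAGTGCttgaacggaac
Slc40a1, 5′ UTR, chr1:45925465-45925492, minus strand: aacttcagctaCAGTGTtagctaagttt
Tfrc, 3′ UTR, chr16:32631220-32631247, plus strand: attatcggaagCAGTGCcttccataatt
Tfrc, 3′ UTR, chr16:32631599-32631626, plus strand: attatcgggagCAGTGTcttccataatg
Tfrc, 3′ UTR, chr16:32631664-32631691, plus strand: tatatcggagaCAGTGAtctccatatgt
Tfrc, 3′ UTR, chr16:32631711-32631738, plus strand: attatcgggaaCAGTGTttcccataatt

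The 2 ferritin chains stood on opposite sides of Dgcr8-/- cells after let-7. Ftl1, the light chain, was 4.12-fold lower and Fth1, the heavy chain, was 2.15-fold higher in let-7-transfected cells. After miR-294 both were somewhat higher, by 1.21-fold and 1.35-fold, and in Dgcr8-/- against WT cells both were higher again, by 1.54-fold and 1.499-fold. The difference from WT cells depended on the scale, with log2 folds of 0.62 and 0.58 in pooled levels and 0.39 and 0.26 in the deposited FPKM. The median pooled log2 fold over all genes averaging 5 counts or more was 0.35 in that comparison. The 3 comparisons share the Dgcr8-/- cells.

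Ftl1 (ENSMUSG00000050708, chr7:45457944-45459884, minus strand, Gencode M21 on GRCm38) was among the most abundant mRNAs of the stem cells, as the gene with rank 8 by mean count. Its normalized count in Dgcr8-/- cells had a lowest value of 1621, a median of 7906 and a highest value of 33624 (n = 60 cells). In let-7-transfected cells the same values were 677, 1847 and 13478 (n = 45). In miR-294-transfected cells they were 5062, 10400 and 25172 (n = 57), and in WT cells 3307, 5559 and 16152 (n = 16). Of the 45 let-7-transfected cells, 20 lay below the lowest Dgcr8-/- cell and 43 below the median Dgcr8-/- cell, so the ranges overlapped in the upper part of the let-7 cells only. Every one of the 178 libraries counted had Ftl1 reads. The level was 2177 (2164 to 2191) after let-7 and 8965 (8943 to 8987) in Dgcr8-/- cells, a log2 fold of -2.04 (-2.05 to -2.03). With miR-294 the level was 10874 (log2 fold 0.28) and in WT cells 5832, 0.62 below that of Dgcr8-/- cells on the log2 scale. The relative spread between cells was described by the coefficient of variation. For Ftl1 it was 0.94 after let-7 and 0.65 in Dgcr8-/- cells (0.57 without the cell that stood apart). In WT cells it was 0.48 and after miR-294 0.34. The let-7 and WT values each include a single high cell, at 13478 and 16152, where the next highest cells had 8276 and 7288. These 2 values were not computed without that cell, so the conditions are not ordered by spread.

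Fth1 (ENSMUSG00000024661, chr19:9980598-9985098, plus strand) had a lowest, median and highest normalized count of 211, 630 and 3514 in Dgcr8-/- cells and of 555, 1504 and 2882 in let-7-transfected cells. In miR-294-transfected cells the values were 335, 887 and 2212, and in WT cells 212, 420 and 1155. The order of the levels was therefore WT (473), Dgcr8-/- (709), miR-294 (956) and let-7 (1522), and the single-cell ranges of neighbours in this order overlapped. Of the 45 let-7-transfected cells, 43 lay above the median Dgcr8-/- cell. None lay above the highest, which was the cell that stood apart, and 28 lay above the highest of the other 59 Dgcr8-/- cells (1300.4). The log2 fold after let-7 was 1.10 (1.09 to 1.12), close to the 2-fold line, and it was 0.97 with TMM normalization. Without the cell that stood apart it was 1.15, and that of Ftl1 was -2.01. The coefficient of variation of Fth1 was 0.42 after let-7 and 0.65 in Dgcr8-/- cells, or 0.42 there without that cell.

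**Figure D1:**
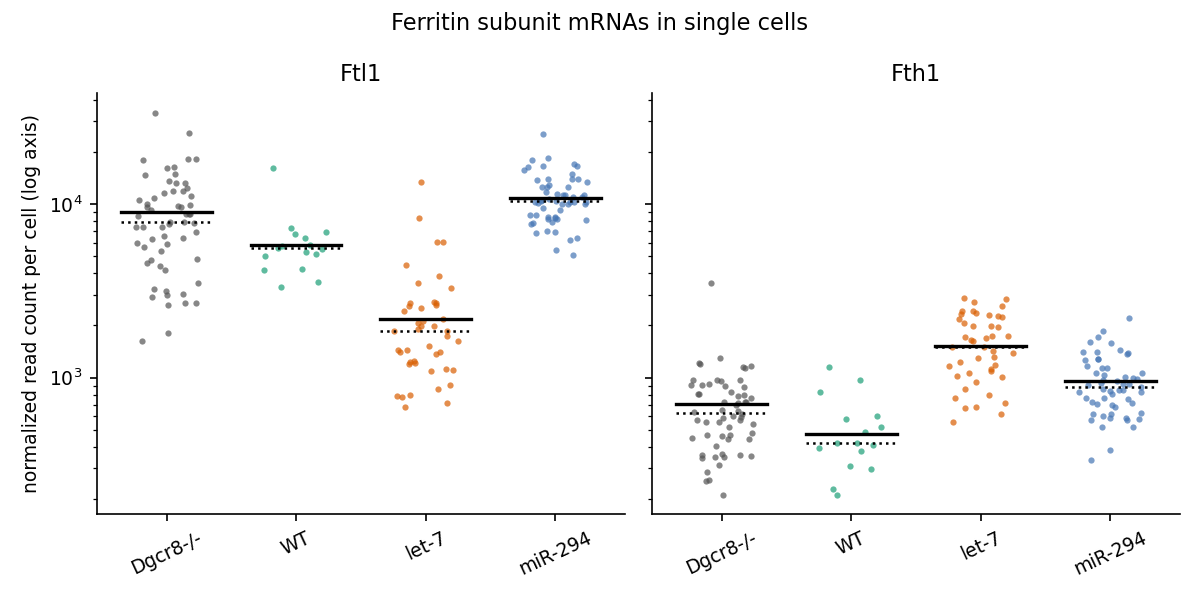
Normalized read count per cell (log axis) of Ftl1 and Fth1 in the 4 conditions, with 1 point per cell, a solid line for the pooled level and a dotted line for the median cell. Ftl1 is lowest in let-7-transfected cells (level 2177), where Fth1 is highest (level 1522).

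Because the chains are counted in the same cell, their ratio does not depend on the depth or normalization of that cell. The median cell had 12.7 Ftl1 counts per Fth1 count in Dgcr8-/- cells (range 2.84 to 38.8), 12.3 in WT cells (6.10 to 27.1) and 11.6 after miR-294 (6.40 to 26.7). After let-7 it had 1.18 (0.524 to 19.8). The ratio was below that of the lowest Dgcr8-/- cell in 40 of the 45 let-7-transfected cells and below the median of Dgcr8-/- cells in 44. In 16 of the 45 cells Fth1 had more counts than Ftl1, against 0 of 60, 0 of 16 and 0 of 57 cells in the other conditions. Set per transcript length, the mean FPKM of Ftl1 was 7027 in Dgcr8-/- cells and 1736 after let-7, and that of Fth1 was 619 and 1347. On this scale the ratio of the mean levels was 11.3 in Dgcr8-/- cells, 10.3 in WT cells, 10.2 after miR-294 and 1.29 after let-7. The 3 conditions without let-7 thus had ratios close to each other although both levels differed between them.

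**Figure D2:**
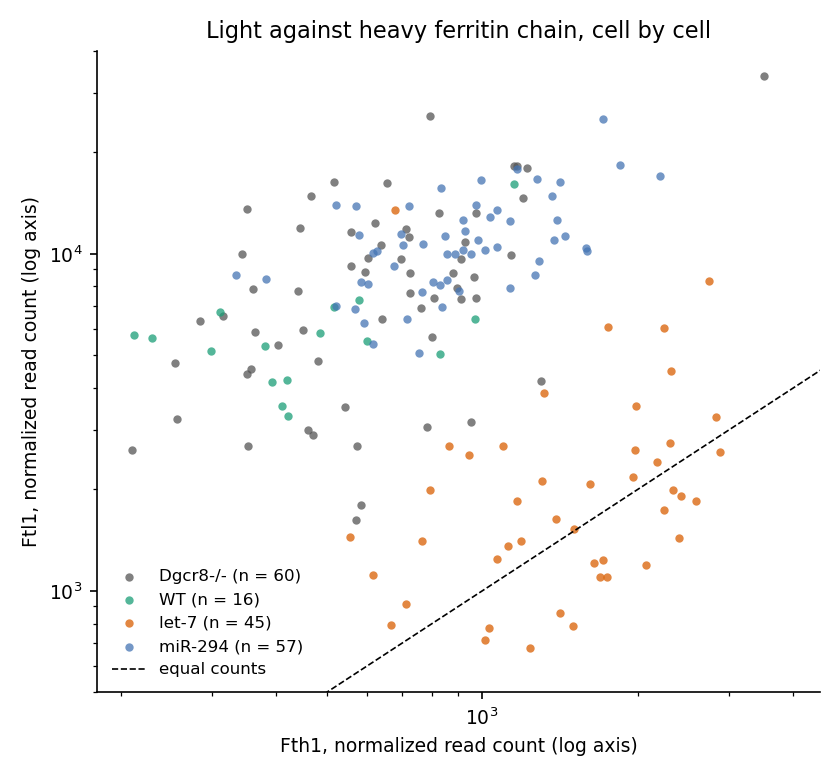
Ftl1 (vertical axis) against Fth1 (horizontal axis) in each cell, both as normalized read counts on log axes, coloured by condition, with a dashed line where both counts are equal. The let-7-transfected cells lie around the dashed line, with 16 of 45 below it, while the cells of the other 3 conditions lie well above it.

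Reads of Ftl1 can be shared with its copies. Of the distinct 31-base stretches of Ftl1 transcripts, 57.7% also occurred in transcripts of other annotated genes, against 3.24% for Fth1. At least 20% of the stretches of 12 genes in the tables occurred in Ftl1, and those of 1 gene (Gm6977) in Fth1. Of the 12, only Ftl1-ps1 averaged 5 counts or more, with levels of 62.2 in Dgcr8-/-, 10.7 in WT, 27.9 in let-7-transfected and 56.9 in miR-294-transfected cells. The copies together held between 0.209% (WT) and 1.65% (let-7) of the sum with Ftl1. Adding them left the let-7 log2 fold at -2.03, so it was much the same when reads counted to the copies were included. A gene annotated as a miRNA, Gm22133, overlaps the Ftl1 exons on the same strand and had a level of at most 0.0657.

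Tfrc (ENSMUSG00000022797, chr16:32608920-32632794, plus strand), the receptor for transferrin-bound iron, was highest in Dgcr8-/- cells. Its normalized counts there had a lowest value of 1.65, a median of 971 and a highest value of 3611. After miR-294 the values were 19.3, 570 and 1130, and 52 of the 57 cells lay below the median Dgcr8-/- cell. In let-7-transfected cells they were 13.5, 600 and 2636, with 33 of 45 cells below the same median, and in WT cells 9.92, 706 and 2711. Ranges overlapped between all conditions, and the lowest of the Dgcr8-/- cells without the one that stood apart had 147.6. The level was 1118 (1110 to 1126) in Dgcr8-/- cells and 491 (486 to 496) after miR-294, 2.27-fold lower (log2 fold -1.19). This call depended on the scale, since the log2 fold was -0.99 by library size, -0.89 in the deposited FPKM and -0.77 between median cells. After let-7 the level of 678 was 1.65-fold lower than in Dgcr8-/- cells, and in WT cells, at 736, it was lower by a log2 difference of 0.60. The log2 difference from WT cells depended on the scale too, at 0.43 by library size and 0.16 in the deposited FPKM. The median over all genes averaging 5 counts or more was 0.35 in that comparison. Thus in the 3 comparisons Dgcr8-/- cells had the higher Tfrc level, and only after miR-294 did it pass 2-fold.

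Slc40a1 (ENSMUSG00000025993, chr1:45908068-45926523, minus strand), the exporter, was not detected in most cells and had reads in more cells after let-7 than in the other conditions. Reads were present in 22 of 45 let-7-transfected cells (48.9%, exact Clopper-Pearson interval 33.7 to 64.2%), in 4 of 60 Dgcr8-/- cells (6.67%, 1.85 to 16.2%), in 1 of 57 miR-294-transfected cells (1.75%) and in 0 of 16 WT cells, which allows a share of up to 20.6%. These intervals take the cells as independent draws. They hold no variation between cultures or chips, and are no test between conditions, since each condition is 1 sample. At an equal depth of 500000 counts per cell the expected shares were 45.9%, 6.67%, 0.511% and about 0%. Of the let-7-transfected cells, 18 had at least 10 normalized counts, and so had more than single reads. The 4 highest let-7-transfected cells had 1168, 464, 441 and 276 normalized counts, and the 4 Dgcr8-/- cells with reads had 1499, 199, 198 and 30.8. The highest single cell was thus the Dgcr8-/- cell that stood apart.

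The level of Slc40a1 was 77.97 (75.5 to 80.6) after let-7 and 17.05 (16.1 to 18.04) in Dgcr8-/- cells, 4.57-fold higher. The Dgcr8-/- cell that stood apart held 76.02% of the counts of its condition, and as a mean over cells, which weights each cell equally, the log2 fold was 1.39 in place of 2.19. Without the highest cell of each condition the levels were 53.9 and 4.12, a 13.1-fold difference. Leaving out only the Dgcr8-/- cell that stood apart gave a log2 fold of 4.24. After miR-294, 1 read was counted in all, and the ratio of Dgcr8-/- to miR-294-transfected cells was 1298 with a counting interval from 232 to 51306. Without the highest cell of each condition no read was left after miR-294, and the level was at least 103-fold lower than in Dgcr8-/- cells at a floor of 3 counts over the group. Against WT cells, with 0 counts, Dgcr8-/- cells were at least 105-fold higher at a floor of 3 counts over the group, and at least 24.4-fold higher without their highest cell. These values describe 4 cells of 60.

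Slc11a2 (ENSMUSG00000023030, chr15:100387898-100425072, minus strand), the importer DMT1, was low in all conditions and uneven between cells. Its median normalized count was 5.56 in Dgcr8-/-, 6.94 in WT, 0 in let-7-transfected and 3.28 in miR-294-transfected cells, and the highest cells had 452, 556, 425 and 246. The level was 35.5 in Dgcr8-/-, 40.7 after let-7 and 38.3 after miR-294. In WT cells it was 100.2, 2.82-fold above Dgcr8-/- cells, but 77.1% of the WT counts came from 1 cell. Without the highest cell of each condition the WT level was 26.6 and that of Dgcr8-/- cells 30.1, a log2 fold of 0.18 in the other direction. The conditions could therefore not be ordered by Slc11a2.

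**Figure D3:**
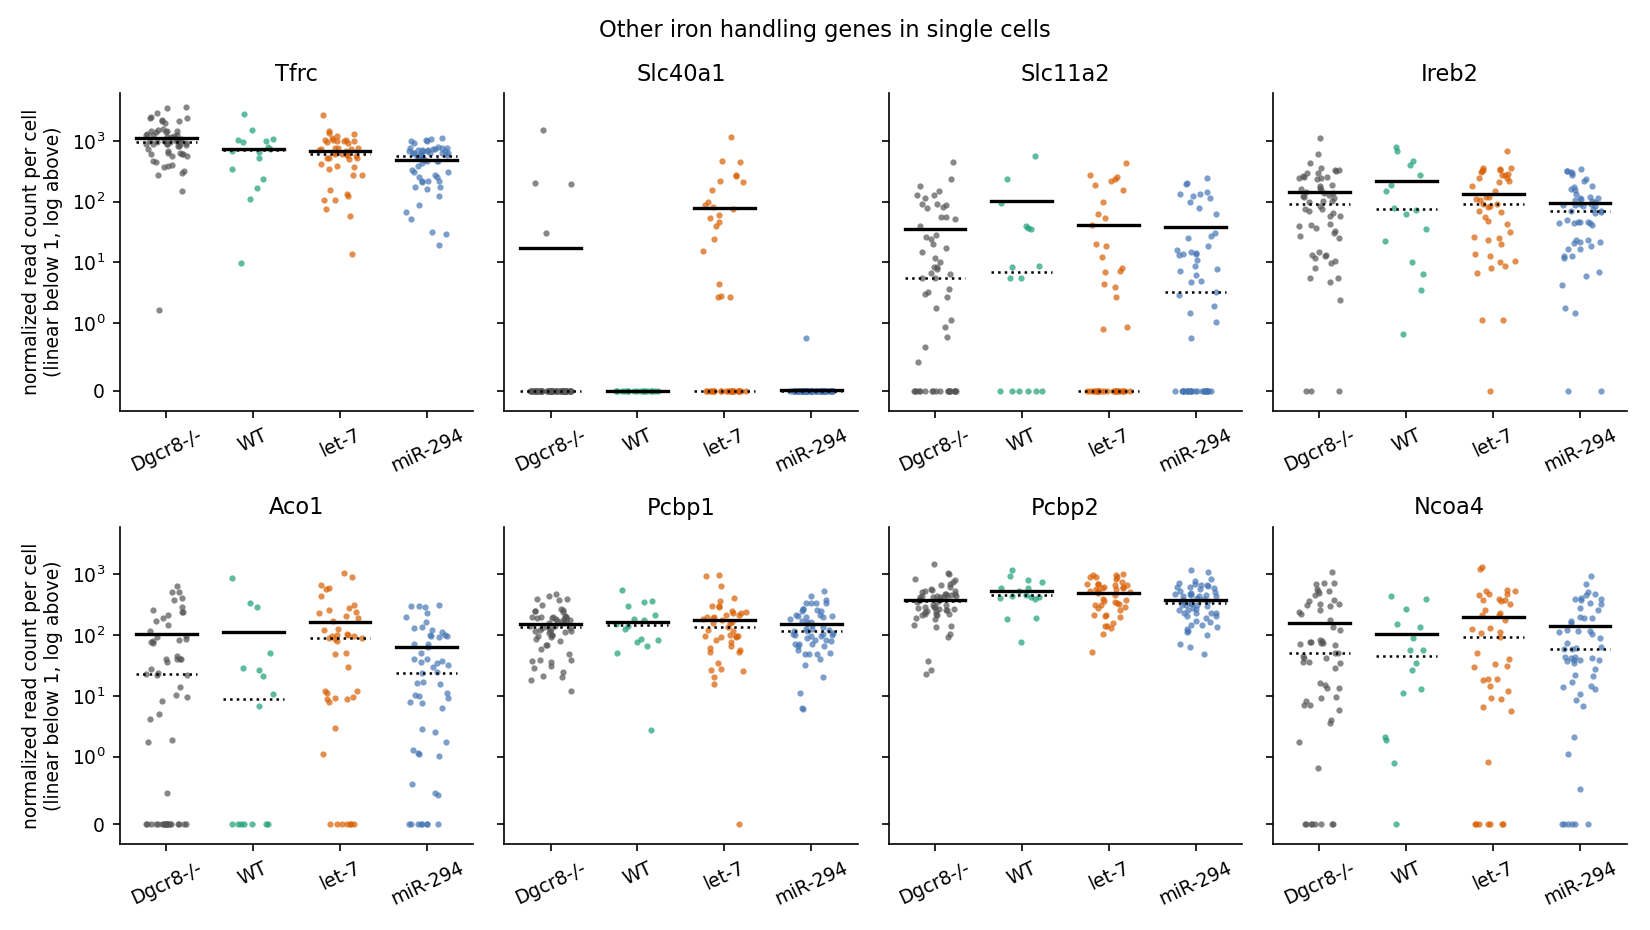
Normalized read counts per cell of the other 8 genes in the 4 conditions, on an axis that is linear below 1 and logarithmic above, with 1 point per cell, a solid line for the pooled level and a dotted line for the median cell. Slc40a1 has reads in 22 of 45 let-7-transfected cells against 4 of 60 Dgcr8-/- cells, and Tfrc is shifted downwards after miR-294.

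The iron regulatory proteins did not pass 2-fold in any comparison of pooled levels, but Aco1 did so under other settings. Aco1 (ENSMUSG00000028405, chr4:40143081-40198338, plus strand) encodes IRP1, which serves as the cytosolic aconitase when it carries an iron-sulphur cluster. Its level was 105 in Dgcr8-/-, 113 in WT, 163 after let-7 and 63.3 after miR-294, with median cells at 22.7, 8.80, 90.3 and 23.4 and lowest cells at 0 in each condition. After let-7 its log2 fold was 0.64, and it was 1.13 with the first run only and 1.99 between median cells. Between median cells it was 1.37 in Dgcr8-/- against WT cells, where the pooled fold was -0.12. It was 1.56-fold higher after let-7 and 1.65-fold lower after miR-294 than in Dgcr8-/- cells, but the median cells after miR-294 and in Dgcr8-/- cells were alike (log2 fold 0.04). In WT cells 59.3% of the Aco1 counts came from 1 cell, and without the highest cells the WT level was 50.03 against 98.0 in Dgcr8-/- cells. Ireb2 (ENSMUSG00000032293, chr9:54863789-54912530, plus strand), which encodes IRP2, was at 146 in Dgcr8-/-, 217 in WT, 135 after let-7 and 93.4 after miR-294. The median cells had 90.8, 75.5, 91.05 and 68.8 normalized counts, a narrower range than the levels, and the highest cells had 1095, 801, 666 and 340.

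The genes for the loading and turnover of ferritin did not pass 2-fold in any comparison, nor under any alternative setting tried. Pcbp1 and Pcbp2 encode RNA-binding proteins that also deliver iron to ferritin as chaperones, and Ncoa4 encodes the receptor that carries ferritin to autophagosomes for breakdown. Pcbp1 (ENSMUSG00000051695, chr6:86524492-86526321, minus strand) had levels of 153, 167, 178 and 154 in Dgcr8-/-, WT, let-7-transfected and miR-294-transfected cells, with median cells between 118 and 146. Pcbp2 (ENSMUSG00000056851, chr15:102470539-102500061, plus strand) had levels of 378, 527, 497 and 376, with median cells between 341 and 490. Its log2 fold was 0.40 after let-7, -0.01 after miR-294 and -0.48 in Dgcr8-/- against WT cells. Ncoa4 (ENSMUSG00000056234, chr14:32159865-32179855, plus strand) had levels of 157, 102, 200.5 and 140 and was uneven between cells, with lowest cells at 0 in each condition and highest cells between 447 and 1326. Exons of Pcbp1 and Pcbp2 overlap those of genes on the opposite strand (1600020E01Rik, and Map3k12 and Gm26518), and without strand in the counting reads there cannot be told apart. The levels of these partners were at most 143.

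**Figure D4:**
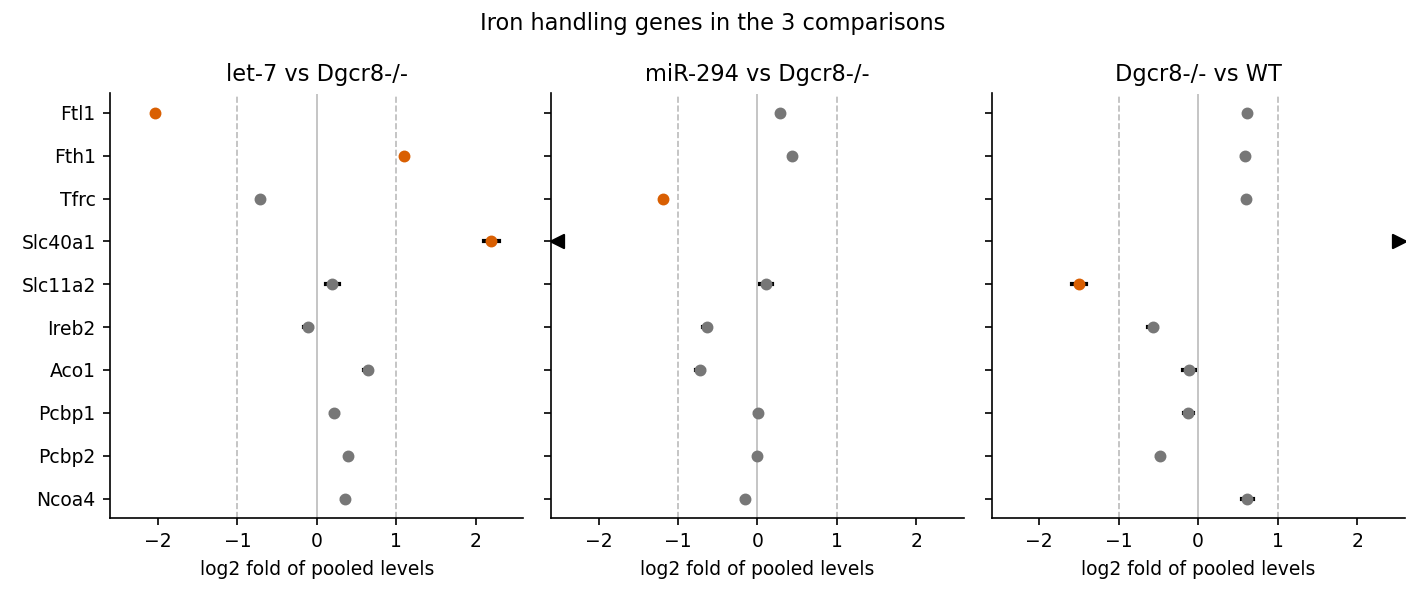
Log2 fold of the pooled levels of the 10 genes in the 3 comparisons, with bars for the 95% counting interval, dashed lines at 2-fold and orange points past them. Ftl1 (-2.04) and Fth1 (1.10) lie on opposite sides after let-7, and the triangles mark Slc40a1 values beyond the axis, which rest on 1 count after miR-294 and on 0 counts in WT cells.

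Folds past 2 were common in these data, so the counts of the 10 genes are read against all genes. After let-7, 2 of the 10 genes were at least 2-fold higher, where 18.3% of the 11178 genes averaging 5 counts or more were, and 1 was at least 2-fold lower, where 9.25% were. After miR-294, 0 of 10 were higher (6.19% of all genes) and 2 were lower (19.7%). In Dgcr8-/- against WT cells 1 was higher (31.8%) and 1 was lower (9.83%). With 10 genes these counts do not set the group apart from all genes. Abundant genes have a background of their own, and among the 589 genes averaging 500 counts or more, 4.41% were 2-fold higher and 3.23% 2-fold lower after let-7, 0.17% and 4.24% after miR-294, and 13.8% and 1.53% in Dgcr8-/- against WT cells. The 3 abundant genes of the set were Ftl1, Fth1 and Tfrc. One of the 3 was higher (Fth1) and one lower (Ftl1) after let-7, none was higher and one lower (Tfrc) after miR-294, and none passed 2-fold either way in Dgcr8-/- against WT cells. The median log2 fold over the 10 genes was 0.29, -0.08 and 0.23 in the 3 comparisons in the order given, beside 0.18, -0.26 and 0.35 over all genes averaging 5 counts or more. With TMM normalization the medians over all genes were 0.04, -0.11 and 0.21.

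Across the cells of a condition the 2 ferritin chains varied together, also after let-7. The Spearman correlation of their normalized counts was 0.42 in 60 Dgcr8-/- cells, 0.38 in 45 let-7-transfected cells and 0.51 in 57 miR-294-transfected cells, in each the highest among the pairs of the set (36, 45 and 36 pairs with reads in at least 10 cells). These points share the library and size factor of a cell. Without the cell that stood apart the first of these was 0.39. The lowest correlation in Dgcr8-/- cells was that of Ftl1 with Tfrc (-0.44, or -0.41 without that cell), which was -0.13 after let-7 and -0.17 after miR-294. The median over pairs was between -0.01 and 0.00. Ftl1 correlated with the total count of a cell by 0.23, -0.21 and -0.09 in the same order of conditions, and Fth1 by 0.25, -0.30 and 0.02. With the number of genes detected in a cell the values were -0.19, 0.07 and -0.43 for Ftl1. For Fth1 they were 0.04, -0.19 and -0.23.

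Among the 5327 genes averaging 50 counts or more, the gene most like Fth1 across cells, by the mean correlation over the 3 Dgcr8-/- conditions, was Ftl1 (0.44), followed by Hmox1 (0.41), which encodes the heme oxygenase that frees iron from heme, and Ckb (0.38), a creatine kinase. The genes most like Ftl1 were all glycolytic, namely Eno1 (0.56), Gapdh (0.54) and Aldoa (0.50), and each of their correlations was lower after let-7 (0.39, 0.34 and 0.33) than in Dgcr8-/- cells (0.71, 0.67 and 0.68). The genes most like Tfrc were Zfp979 (0.37), Spry2 (0.35) and Gm26624 (0.33), with weak correlations.

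Around the 10 genes, 92 of 95 other genes listed for iron, heme and iron-sulphur metabolism were found in the tables and 74 averaged 5 counts or more. After let-7, 20 of the 74 were at least 2-fold higher and 6 at least 2-fold lower, with a median log2 fold of 0.41, beside 18.3% and 9.25% of all genes and a median of 0.18. After miR-294, 4 were higher and 9 lower (median -0.24), beside 6.19% and 19.7% of all genes. In Dgcr8-/- against WT cells 21 were higher and 9 lower (median 0.49), beside 31.8% and 9.83%. The lists below are read against the same shares. The antioxidant and ferroptosis genes, many of them known targets of the transcription factor NRF2, were above 0 in 9 of 9 cases after let-7, where 59.6% of all genes were, and 4 of the 9 were at least 2-fold higher, where 18.3% of all genes were. These were Slc7a11, the cystine importer (log2 fold 2.30), Srxn1, a sulphiredoxin (1.17), Txnrd1, a thioredoxin reductase (1.15), and Gclm, a subunit of the enzyme that starts glutathione synthesis (1.08). Gpx4, the peroxidase that guards against ferroptosis (0.42), and Nqo1 (0.51) did not. After miR-294, 1 of the 9, Srxn1 (-2.49), was lower, and in Dgcr8-/- against WT cells Srxn1 (4.25) and Aifm2 (2.70) were higher and Gclc (-1.35) was lower.

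Heme genes lay on both sides. After let-7, 5 of 16 were at least 2-fold higher (18.3% of all genes), namely Hmox1 (4.96-fold, from a level of 109.6 to 544), Fech (3.01-fold), which inserts iron into heme, and Ppox, Cpox and Hebp1. Ppox and Hebp1 were above the median Dgcr8-/- cell in only 12 and 13 of the 45 let-7-transfected cells. Hmox1 was so in 31, and Fech and Cpox in 29 each. The transporter Abcb10 (log2 fold -1.09) was lower. After miR-294 Abcb6 was higher (1.51) and Hebp1 lower (-1.92). In Dgcr8-/- against WT cells 7 of 16 were higher (31.8% of all genes) and 0 lower (9.83%), namely Alas1, which starts heme synthesis (2.05), Ppox, Abcb6, Slc48a1, Hebp1, and the biliverdin reductases Blvra (1.76) and Blvrb (3.04).

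Of 23 genes for iron-sulphur cluster assembly, 2 were higher after let-7 (Bola3, 2.15, and Fdx1l, 1.27), where 18.3% of all genes were, and 3 were lower (Isca2, -1.79, Ciapin1, -1.35, and Isca1, -1.08), where 9.25% were. Ciapin1, an electron carrier of the cytosolic branch, had reads in 60 of 60 Dgcr8-/- cells at a level of 623 and in 44 of 45 let-7-transfected cells at 245. After miR-294, 1 of the 23 was higher (Bola3, 1.37), where 6.19% of all genes were. Another 1, not named here, was lower (-1.07), where 19.7% were. In Dgcr8-/- against WT cells Nfs1, the desulphurase, and Narfl, Mms19 and Abcb8 were higher and Isca2 and Fdxr lower.

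In iron uptake and trafficking, 4 of 12 genes were higher after let-7 (18.3% of all genes) and 1 was lower (9.25%). Trf, transferrin itself, was at a level of 36.01 against 15.9, with reads in 15 of 45 and 7 of 60 cells, and the mitochondrial importer Slc25a37 was 2.51-fold higher. The genes of the Steap family were seen in few cells. Steap1 had reads in 2 of 60 Dgcr8-/- cells, in 7 of 45 let-7-transfected, 5 of 57 miR-294-transfected and 7 of 16 WT cells. Steap2 had 2 counts in Dgcr8-/- cells in all, and its ratio of let-7-transfected to Dgcr8-/- cells was 269.8 with an interval from 74.1 to 2237. This ratio rests on those 2 counts and on 6 of 45 let-7-transfected cells with reads. Steap3 was lower after let-7 (-4.13) and higher in Dgcr8-/- than in WT cells (5.08), with reads in 13 of 60 Dgcr8-/- cells. After miR-294, 2 of the 12 genes were higher (6.19% of all genes), with a highest log2 fold of 5.49, and 1 was lower (19.7%). Mcoln1 was lower after miR-294 (-1.21) and, like Slc25a37, lower in Dgcr8-/- than in WT cells, where Slc39a14 and Exoc6 were higher. Of the heme transporters, Abcg2 was 3.05-fold higher after let-7 and lower in Dgcr8-/- than in WT cells (-1.41). Flvcr1 (-1.49) and Flvcr2 (-2.25) were lower after miR-294 and higher in Dgcr8-/- than in WT cells (2.91 and 1.24). Heph had 0 counts in every cell, and only Neo1 of the hepcidin genes averaged 5 counts or more (log2 fold 0.76 after let-7, -1.05 after miR-294).

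Among regulators of ferritin and of the iron regulatory proteins, Keap1 (1.49), Pcbp4 (1.39), Epas1 (1.04) and Pcbp3 (1.00) were higher after let-7, and 0 of 10 were lower. Pcbp4 and Pcbp3 were above the median Dgcr8-/- cell in only 10 and 7 of 45 let-7-transfected cells, against 26 for Keap1 and 31 for Epas1. Nfe2l2, which encodes NRF2 itself (-0.01), Fbxl5, which marks IRP2 for degradation (0.04), and Bach1, the repressor of Hmox1 and the ferritin genes (-0.17), did not pass 2-fold. After miR-294 Herc2 (-1.16) and Epas1 (-1.09) were lower, and in Dgcr8-/- against WT cells Pcbp3, Epas1 and Herc2 were higher and Mafg lower.

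**Figure D5:**
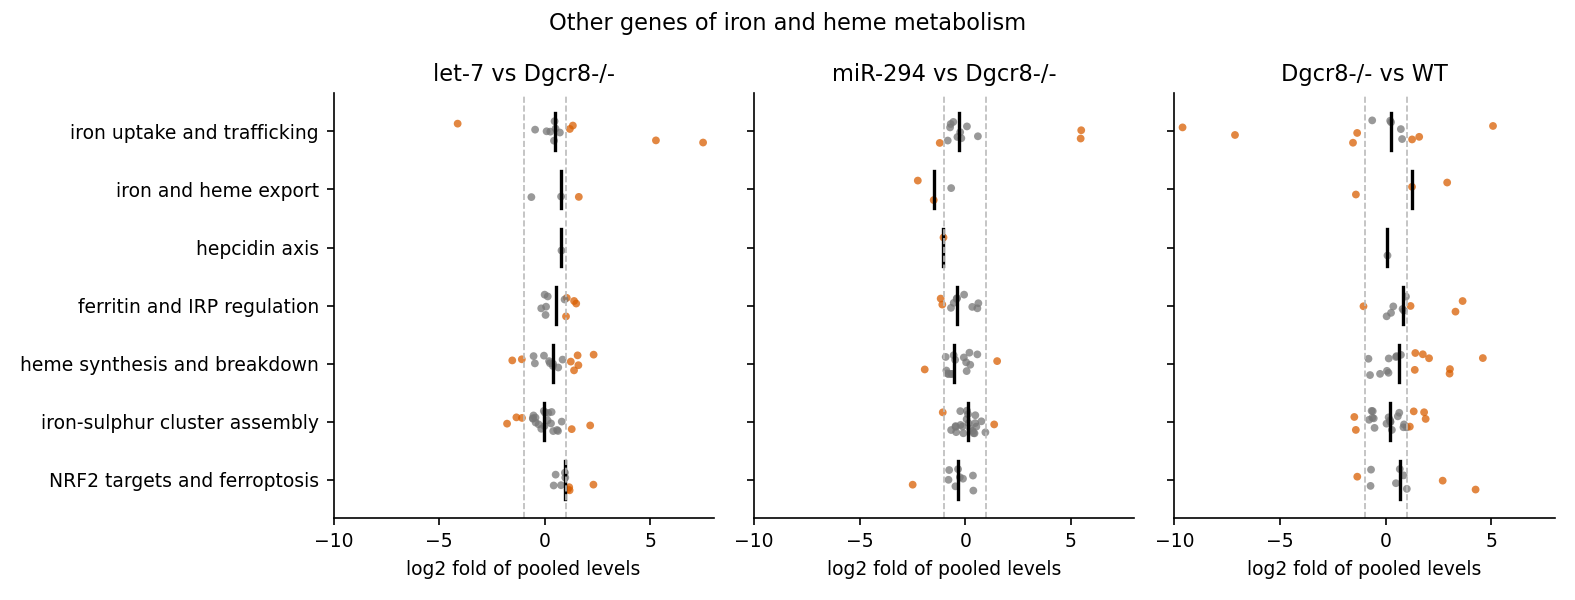
Log2 fold of the pooled levels of the 74 other listed genes averaging 5 counts or more, by list, in the 3 comparisons, with 1 point per gene, orange past 2-fold (dashed lines), and a black bar at the median of the list. After let-7 the 9 antioxidant and ferroptosis genes all lie above 0, while iron-sulphur genes lie on both sides (median -0.02).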

How the data were processed

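Processed tables of 232 runs of 182 single cells were used. For each run the authors deposited RSEM (version 1.2.19, per the labels) expected counts per Gencode gene, which are not normalized, and FPKM values, which are scaled for length and depth. The runs of a cell were added up and the sums rounded to whole numbers. Size factors were medians of ratios over 863 genes counted in every cell. Folds are ratios of pooled levels with conditional binomial intervals, with a floor of 3 counts in calls, plots and folds against a group at 0 (a ratio against 1 to 3 counts is printed as counted), and past 2-fold was the call among genes averaging 5 counts or more. FPKM was used to compare genes and as an alternative. Symbols were found for 41674 of 42493 gene identifiers. Sequence was read from Gencode M21 transcripts, while the study counted on Gencode M4, both on GRCm38. Tools were Python 3.11.15, numpy 2.4.6, scipy 1.17.1, pandas 2.3.3, and edgeR 4.0.16 in R 4.3.3 for TMM factors only. The level and interval code was tested on simulated data. Named genes were the 10 genes, ferritin copies averaging 5 counts or more, listed genes past 2-fold in at least 1 comparison with a few of known role, and the 3 most correlated genes for Ftl1, Fth1 and Tfrc. Some listed genes are not reported here by name. The genes and lists were chosen with earlier results of these data known. No p-value was computed, since each condition is 1 sample.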

Additional observations from a re-analysis of the deposited data

How the results depend on the processing

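Of the 7 member folds past 2-fold, 6 kept their direction under every alternative that gave a value, and 4 stayed past 2-fold. The 4 were Ftl1 after let-7 and Slc40a1 in the 3 comparisons. Slc40a1 gave no value between median cells. Against WT cells, with 0 counts, it also gave none as a mean over cells or in FPKM, which left 8 alternatives. The exception in direction was Slc11a2 in Dgcr8-/- against WT cells, at a log2 fold of 0.18 without the highest cell of each condition. For Ftl1 after let-7 the log2 fold was -2.17 with TMM factors, -2.12 by library size, -2.02 with the first run only, -2.08 in cells with at least 1000000 counts and also without the highest cells, -1.91 as a mean and -2.10 as a median over cells, -2.02 in FPKM, -2.03 with the ferritin copies and -2.01 without the Dgcr8-/- cell that stood apart. For Fth1 these were 0.97, 1.02, 1.203, 1.07, 1.13, 1.17, 1.26 and 1.12 in the same order of settings, from TMM factors to FPKM, and 1.15 without that cell. The members past 2-fold after miR-294 numbered 2, and 1 by library size or in FPKM, 0 between median cells, where Slc40a1 gives no value, and 4 at a fold of 1.5. In Dgcr8-/- against WT cells they numbered 2, and 1 with the first run only, without the highest cells, in FPKM or between median cells, 0 as a mean over cells and 5 at a fold of 1.5. After let-7 they numbered 3, and 2 with TMM factors, 4 with the first run only and 5 at a fold of 1.5. Genes of all kinds past 2-fold went from 3085 to 6550 after let-7 and from 2899 to 6184 after miR-294 with no filter on low counts, and from 4659 to 2814 in Dgcr8-/- against WT cells between median cells. The cause of these differences was not tested. Leaving out the highest cells, the cell that stood apart or the 2 cells whose runs disagreed and the limit of 500 counts were chosen after seeing the data. No paired analysis was possible because the result comes from no test. The 16 WT cells and 1 chip per condition limit every comparison.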
